A study of Micropterus salmoides with 6 samples.

Results

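The genes described here carry cells through mitosis: they condense the chromosomes, build the spindle, attach chromosomes to it, check the attachment and split the cell. Of 60 such genes listed by symbol, 53 were found in the deposited counts table under the listed name. All 53 had 10 or more counts in at least 3 libraries and entered the test, among 20627 tested genes of 27166 in the table. The other 7 symbols (smc2, incenp, bub1, cenpa, kif11, prc1a and kif20ba) were not matched and are not analysed here. The genes were listed by name and function, with earlier results of these data known.

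RNA was sequenced from the whole bodies of largemouth bass (Micropterus salmoides) larvae, a farmed freshwater fish, after 12 days of feeding. The SP_L group was made of larvae with skeletal deformity from tanks fed 0% supplemental phospholipid. The SP_H group was made of larvae of normal shape from tanks fed 8% phospholipid. There were 3 libraries per group, each from a pool of 30 larvae, so single larvae are not resolved. Larvae were picked by body shape as well as by diet, and the effects of diet and deformity cannot be told apart.

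Transcripts of this kind are made mainly in cells that are preparing to divide. They accumulate late in the cell cycle under the transcription factors FoxM1 and B-Myb, and many of their protein products are destroyed as the cell leaves mitosis. In a fish larva the dividing cells lie in many places, among them the growth zones of cartilage and bone, the gut lining, the rim of the retina, brain ventricles, muscle and blood-forming tissue. In RNA from whole bodies, fewer dividing cells and less of these transcripts per dividing cell cannot be told apart.

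All 53 mitosis genes had lower values in SP_L than in SP_H, and 0 of them passed the edgeR test over all genes. Their log2 fold changes, SP_L over SP_H, ran from -0.76 to -0.03 with a median of -0.36, a level 22.0% lower at that median. Over all 20627 tested genes the median was 0.00 and 49.5% of the values were negative. Of the mitosis genes, 32 lay below the 10th percentile of all tested genes (-0.33) and 46 below the 25th percentile (-0.15). The genes are read from the same 6 RNA pools and are not independent of each other.

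Summed over the 53 genes, the level was 779, 866 and 872 CPM (counts scaled to the library total, after TMM normalization between libraries) in SP_H replicates 1, 2 and 3. It was 632, 706 and 638 CPM in SP_L replicates 1, 2 and 3. Every SP_L library lay below every SP_H library, and the mean sum was 21.5% lower in SP_L (658 ± 41.4 against 839 ± 52.1 CPM, SD, n = 3 each). As a share of all deposited counts the genes took 0.0877 ± 0.0054% (SD, n = 3) in SP_H against 0.0629 ± 0.00364% (n = 3) in SP_L. This share is taken without TMM, whose factors were 1.028 to 1.06 in SP_H and 0.9388 to 0.9864 in SP_L. Without TMM the median log2 fold change of all tested genes was itself -0.13, so the wider gap is not particular to these genes.

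At a Benjamini-Hochberg adjusted p under 0.05, the quasi-likelihood test of edgeR called 14 of all tested genes (0.0679%), 2 of them lower in SP_L (0.0097%). None of these was a mitosis gene, and the lowest adjusted p among them was 0.0775. DESeq2 called 2 mitosis genes, mki67 and top2a, both lower, where it called 2.22% of all genes in either direction and 0.608% lower. At an unadjusted edgeR p under 0.05, 26 of the 53 (49.1%) were lower and 0 were higher, against 5.84% and 6.90% of all tested genes. Leaving out SP_H replicate 3 brought the lower ones to 15, as did leaving out SP_L replicate 3, while scaling by library size alone gave 42. The shares of all tested genes at that p in these fits are not given here. With library size alone the median of all tested genes was itself -0.13. In 33 of the 53 genes (62.3%) all 3 SP_L libraries lay below all 3 SP_H libraries in CPM, against 9.46% of all tested genes. The opposite order occurred in 0 mitosis genes and in 9.64% of all tested genes. Fold changes lay more than 2 standard errors below 0 in 35 genes (66.0%), against 7.95% of all tested genes.

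**Figure D1:**
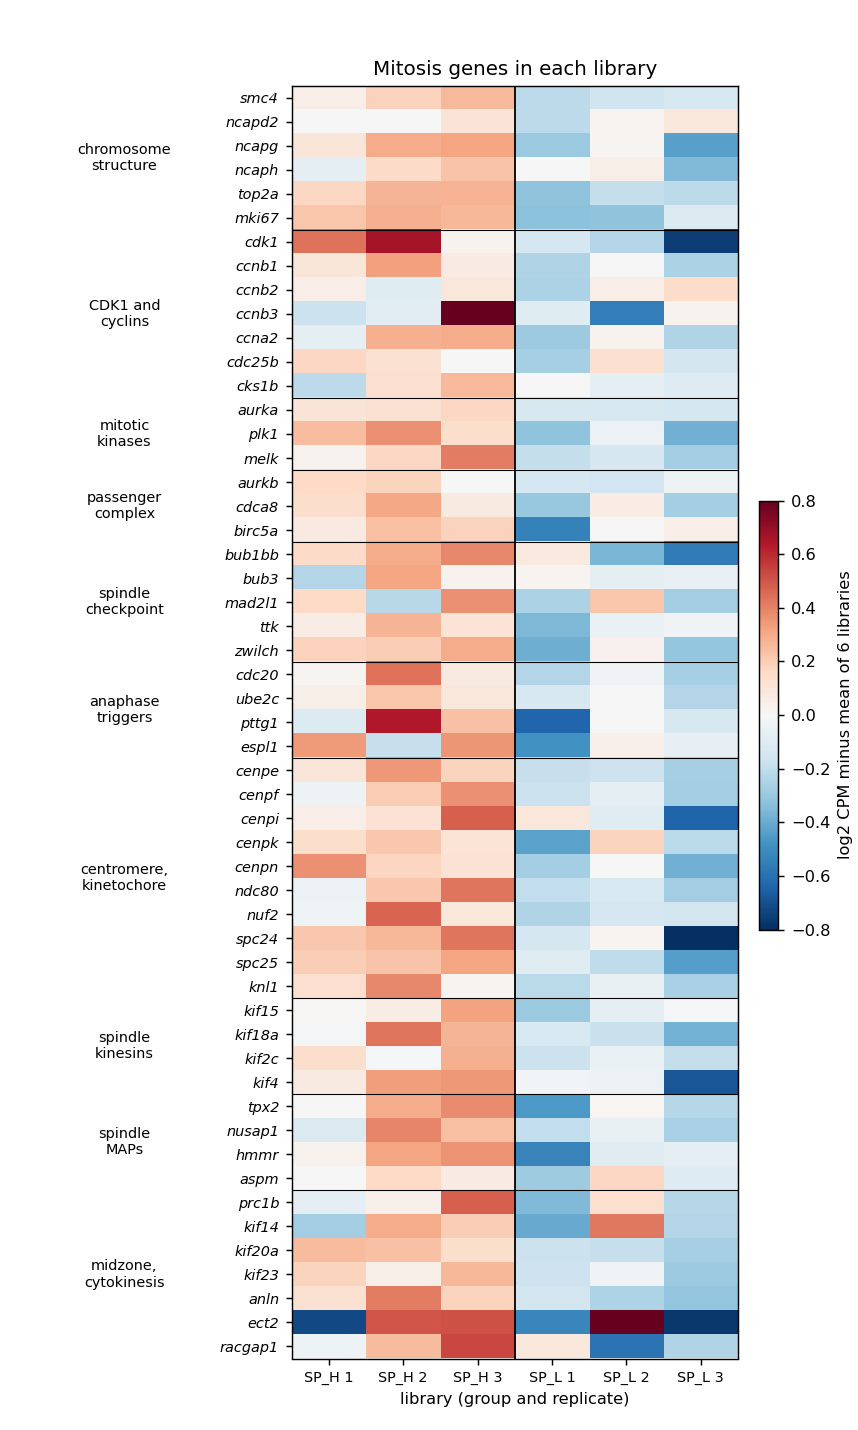
Level of each of the 53 mitosis genes (rows, grouped by role; MAPs are microtubule-associated proteins) in each library (columns), as log2 CPM minus the mean of the 6 libraries; values beyond 0.8 in either direction take the end colour. The SP_H columns are mostly red and the SP_L columns mostly blue, with SP_H replicate 1 and SP_L replicate 2 the palest of their groups.

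The libraries within a group were not alike. The median of the 53 genes, as log2 CPM relative to the mean of the 6 libraries, was 0.06, 0.24 and 0.26 in SP_H replicates 1, 2 and 3, and -0.21, -0.05 and -0.24 in SP_L replicates 1, 2 and 3. The groups did not overlap, and the gap between SP_H replicate 1 and SP_L replicate 2 was smaller than the range within either group. SP_H replicate 1 was the lowest SP_H library for 38 of the 53 genes. SP_L replicate 2 was the highest SP_L library for 31. The lowest of the 6 libraries was SP_L replicate 3 for 27 genes and SP_L replicate 1 for 21. The same medians over all tested genes were between 0.00 and 0.01 in every library.

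Chromosome structure genes held the lowest p-values of the set. The gene mki67 encodes the Ki-67 protein, which coats mitotic chromosomes and is widely used as a marker of dividing cells. It stood at 42, 44.0 and 43.3 CPM in the SP_H libraries and at 28.6, 28.8 and 33.2 CPM in the SP_L libraries (replicates 1, 2 and 3 here and below). The SP_H libraries were close together and all above SP_L, and the log2 fold change came to -0.51 ± 0.09 (SE; edgeR adjusted p = 0.0775, DESeq2 adjusted p = 0.00734). Its adjusted p over the alternatives ranged from 0.00734 to 0.26. The gene top2a encodes topoisomerase II alpha, which untangles sister chromosomes. It stood at 34.7, 37.4 and 37.5 CPM in SP_H and at 24.7, 27.1 and 26.7 CPM in SP_L. These groups did not overlap either, and the value was -0.48 ± 0.09 (edgeR adjusted p = 0.0819, DESeq2 adjusted p = 0.017, range over the alternatives 0.017 to 0.273).

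Condensin is the ring complex that compacts chromosomes. Its ATPase gene smc4 had the highest CPM of all 53 genes, at 55.1, 60.3 and 63.6 CPM in SP_H and 46.0, 47.4 and 48.6 CPM in SP_L, without overlap (log2 fold change -0.33 ± 0.09, edgeR adjusted p = 0.152). The other condensin genes differed in how far the groups were apart. The value of ncapg was -0.47 ± 0.15 without overlap, that of ncaph -0.20 ± 0.14 with overlap, and that of ncapd2 -0.07 ± 0.11, within its standard error.

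The engine of mitosis is the kinase encoded by cdk1 together with B- and A-type cyclins. The largest fold change of the 53 genes was that of cdk1, at 10.9, 12.9 and 8.22 CPM in SP_H and 7.34, 6.84 and 4.73 CPM in SP_L. The groups did not overlap, but both were spread, giving a value of -0.76 ± 0.22 (edgeR adjusted p = 0.186). The main mitotic cyclin gene, ccnb1, stood at 34.6, 40.5 and 33.9 CPM in SP_H and 27.3, 32.4 and 27.1 CPM in SP_L. It had no overlap and a smaller value of -0.33 ± 0.11 (edgeR adjusted p = 0.260). The cyclin A gene ccna2 had a value of -0.34 ± 0.15, with SP_L replicate 2 (15.4 CPM) above SP_H replicate 1 (14.3 CPM). The cyclins ccnb2 and ccnb3 had low counts, with values of -0.03 ± 0.24 and -0.50 ± 0.36. The value of ccnb3 rested on SP_H replicate 3, at 4.63 CPM, with the other 5 libraries between 1.63 and 2.5 CPM, and was -0.06 without it. The phosphatase gene cdc25b, whose product switches CDK1 on, and cks1b, whose product is a small CDK-binding subunit, had values of -0.18 ± 0.12 and -0.13 ± 0.14, both with overlap.

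**Figure D2:**
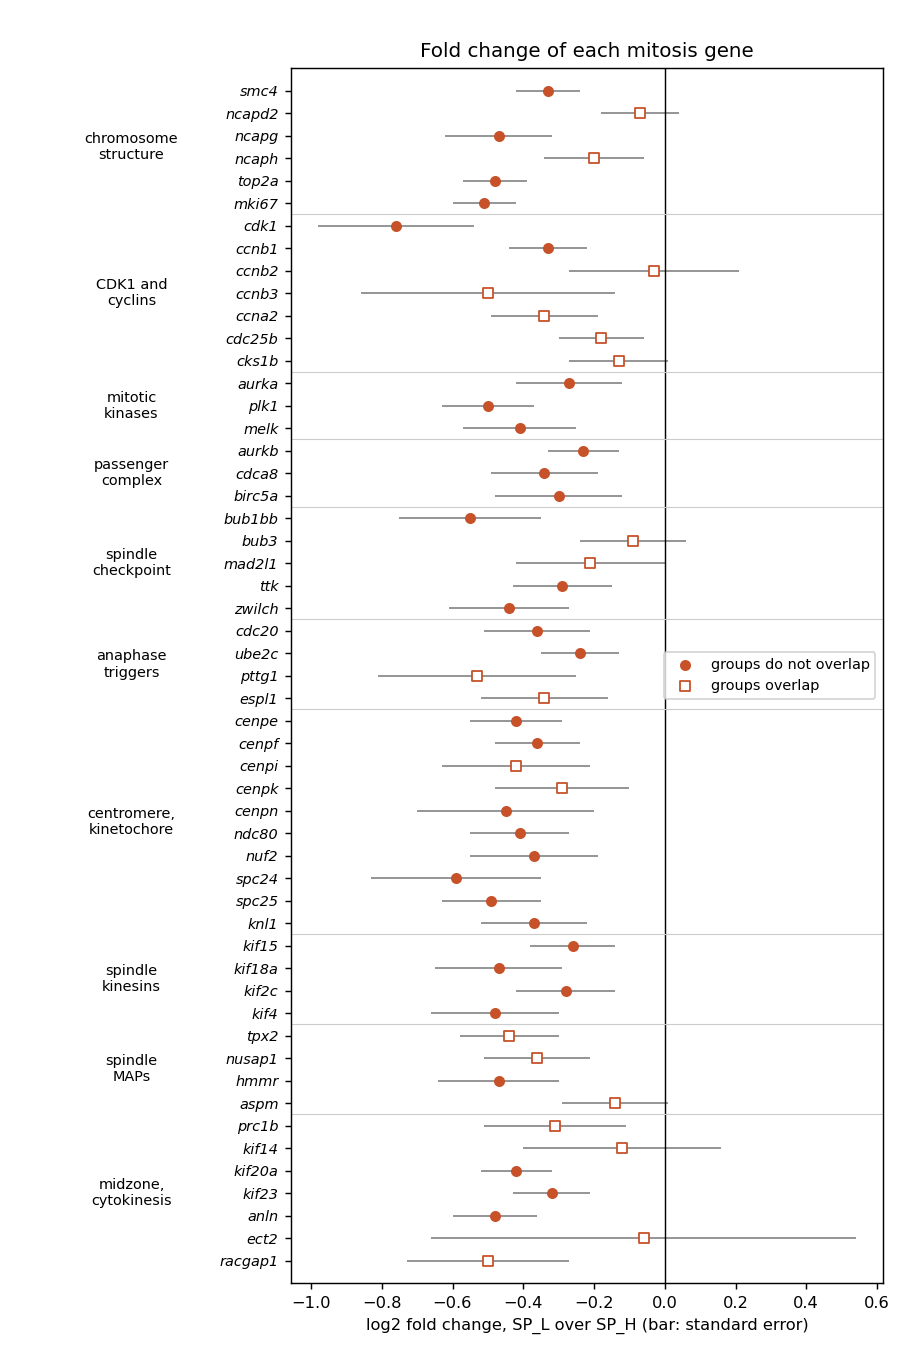
Log2 fold change of each mitosis gene, SP_L over SP_H, with its standard error from the edgeR fit; filled circles are genes whose 3 SP_L libraries all lie below the 3 SP_H libraries, open squares are genes whose groups overlap. All 53 points lie below 0, between -0.76 (cdk1) and -0.03 (ccnb2), and 8 lie within 1 standard error of 0.

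The 3 mitotic kinase genes did not overlap between groups (9.46% of all tested genes lay lower in the same way). The gene plk1 encodes polo-like kinase, which acts from mitotic entry to cell division. It stood at 16.1, 17.5 and 15 CPM in SP_H and 10.8, 13.1 and 10.4 CPM in SP_L (log2 fold change -0.50 ± 0.13, edgeR adjusted p = 0.167). The spindle pole kinase gene aurka stood at 6.93 ± 0.161 CPM (SD, n = 3) in SP_H against 5.75 ± 0.0321 CPM (n = 3) in SP_L. It had only 81 to 117 counts a library. Its log2 fold change was -0.27 ± 0.15 (edgeR adjusted p = 0.513, DESeq2 adjusted p = 0.831). The value of melk, a kinase gene made mainly in dividing cells, was -0.41 ± 0.16.

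The chromosomal passenger complex corrects wrong attachments and then moves to the spindle midzone. Its kinase gene aurkb stood at 23.0, 23.4 and 20.6 CPM in SP_H and 18.7, 18.5 and 20 CPM in SP_L. The groups were close but separate (log2 fold change -0.23 ± 0.10, edgeR adjusted p = 0.394). The survivin gene birc5a stood at 9.98, 11.2 and 10.8 CPM in SP_H and 6.49, 9.53 and 9.85 CPM in SP_L. Here SP_L replicate 1 was well below the rest and SP_L replicate 3 came close to SP_H replicate 1 (-0.30 ± 0.18, edgeR adjusted p = 0.523). Without SP_L replicate 1 the value was -0.14. The borealin gene cdca8 had a value of -0.34 ± 0.15, without overlap.

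The spindle checkpoint holds the cell in metaphase until every chromosome is attached. The gene bub1bb encodes its BubR1 subunit, at 7.51, 8.29 and 8.84 CPM in SP_H and 7.13, 5.21 and 4.53 CPM in SP_L. The groups did not overlap, although SP_L replicate 1 was close to SP_H (log2 fold change -0.55 ± 0.20, edgeR adjusted p = 0.280). In contrast bub3, whose product brings the BUB proteins to kinetochores, stood at 11.5, 16.9 and 13.8 CPM in SP_H and 13.8, 12.9 and 13.0 CPM in SP_L. All its SP_L libraries lay within the SP_H range (-0.09 ± 0.15, edgeR adjusted p = 0.859). The checkpoint kinase gene ttk and zwilch, whose product helps to recruit checkpoint proteins, had values of -0.29 ± 0.14 and -0.44 ± 0.17 without overlap. The value of mad2l1, which encodes the inhibitor of CDC20, was -0.21 ± 0.21 with overlap.

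Anaphase starts when CDC20 directs the anaphase-promoting complex to cyclin B and securin. The gene cdc20 stood at 13.5, 18 and 14 CPM in SP_H and 11.3, 13.0 and 11 CPM in SP_L, without overlap (log2 fold change -0.36 ± 0.15, edgeR adjusted p = 0.343, and -0.22 without SP_H replicate 2). The gene ube2c, whose product is the ubiquitin-conjugating enzyme of that complex, had the highest level per gene length of the 53 genes. It stood at 20.3, 22.9 and 20.9 CPM in SP_H and 18, 19.6 and 16.7 CPM in SP_L, also without overlap (-0.24 ± 0.11, edgeR adjusted p = 0.399). The securin gene pttg1 and the separase gene espl1, whose product cuts the cohesin that joins sister chromatids, had values of -0.53 ± 0.28 and -0.34 ± 0.18, both with overlap.

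Kinetochores are the protein plates on centromeres that grip microtubules. The 10 centromere and kinetochore genes had values between -0.59 and -0.29 with a median of -0.41, and 8 of them did not overlap between groups (9.46% of all tested genes lay lower in the same way). The gene spc25 encodes a subunit of the NDC80 complex, the coupler between kinetochore and microtubule. It stood at 13.0, 13.3 and 14.1 CPM in SP_H and 10.6, 9.85 and 8.34 CPM in SP_L (log2 fold change -0.49 ± 0.14, edgeR adjusted p = 0.171). The gene ndc80 itself stood at 15, 18 and 20.9 CPM in SP_H and 13.5, 14.2 and 12.7 CPM in SP_L (-0.41 ± 0.14, edgeR adjusted p = 0.256). Both were lower in every SP_L library. The other 2 subunits, spc24 and nuf2, had values of -0.59 ± 0.24 and -0.37 ± 0.18, also without overlap. The kinetochore motor gene cenpe, the large corona gene cenpf and the scaffold gene knl1 had values of -0.42 ± 0.13, -0.36 ± 0.12 and -0.37 ± 0.15. Of the inner kinetochore genes, cenpn (-0.45 ± 0.25) did not overlap, while cenpi (-0.42 ± 0.21) and cenpk (-0.29 ± 0.19) did.

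Spindle motors and microtubule proteins gave values of the same order. The kinesin gene kif15, whose product helps to push spindle poles apart, stood at 25.2, 26.1 and 31.4 CPM in SP_H and 20.4, 23.8 and 24.8 CPM in SP_L (log2 fold change -0.26 ± 0.12, edgeR adjusted p = 0.414, and -0.16 without SP_H replicate 3). The gene kif18a, whose product shortens kinetochore microtubules, stood at 6.61, 9.06 and 8.09 CPM in SP_H and 6.13, 5.90 and 5.12 CPM in SP_L (-0.47 ± 0.18, edgeR adjusted p = 0.306). Neither overlapped, and nor did the depolymerase gene kif2c (-0.28 ± 0.14) or the chromokinesin gene kif4 (-0.48 ± 0.18). The gene tpx2, whose product activates the kinase encoded by aurka and nucleates spindle microtubules, stood at 33.2, 41.1 and 43.4 CPM in SP_H and 24.2, 33.7 and 28.5 CPM in SP_L. Its groups overlapped by SP_L replicate 2 alone, and its value was -0.44 ± 0.14 (edgeR adjusted p = 0.230). The other genes of this role were hmmr, whose product helps to assemble the spindle (-0.47 ± 0.17, no overlap), nusap1, whose product bundles microtubules (-0.36 ± 0.15, overlap) and the spindle pole gene aspm (-0.14 ± 0.15, overlap).

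Genes of the spindle midzone and of cytokinesis, the final division of the cell body, included kif20a and anln, next after mki67 and top2a in order of p-value. The midzone kinesin gene kif20a stood at 19.7, 19.5 and 18.2 CPM in SP_H and 14.7, 14.6 and 13.7 CPM in SP_L (log2 fold change -0.42 ± 0.10, edgeR adjusted p = 0.140). The gene anln encodes anillin, a scaffold of the contractile ring, and stood at 17.2, 21.0 and 18 CPM in SP_H and 14.3, 13.3 and 12.7 CPM in SP_L (-0.48 ± 0.12, edgeR adjusted p = 0.146). In both genes the groups were separate, and the libraries within each group were closer together in kif20a than in anln. The centralspindlin kinesin gene kif23 stood at 22.0, 20.1 and 23.4 CPM in SP_H and 17.3, 19.1 and 15.9 CPM in SP_L, without overlap (-0.32 ± 0.11, edgeR adjusted p = 0.272). Its partner racgap1 had a value of -0.50 ± 0.23 with overlap. The microtubule bundler gene prc1b (-0.31 ± 0.20) and the kinesin gene kif14 (-0.12 ± 0.28) overlapped as well. The gene ect2 encodes the RhoA activator that places the furrow and was the least abundant of the 53, with between 7 and 30 counts a library and exactly 3 libraries at 10 counts or more. Its value of -0.06 ± 0.60 leaves its direction unresolved.

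How precisely a gene was measured followed its abundance: over the 53 genes the standard error was smaller at higher mean CPM (Spearman correlation -0.87), and the fold change hardly varied with it (0.14). Both are descriptions over genes that share the same libraries. The 26 genes with the higher mean CPM had a median log2 fold change of -0.35, and the 27 with the lower mean CPM one of -0.37.

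Levels between genes were compared with the deposited FPKM values, which are divided by gene length. Mean FPKM over the 6 libraries ran from 0.248 for ect2 to 24.7 for ube2c, with a median of 4.60 over the mitosis genes and 4.24 over all tested genes. After ube2c the highest were ccnb1 (17), tpx2 (14.2), birc5a (12.2), smc4 (12.1) and cks1b (11.3). FPKM is scaled by the library total alone, so the difference between groups is wider on this scale than in CPM.

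Proportions of the genes within mitotic assemblies were set side by side on the FPKM scale, and most but not all of them overlapped between groups. In the NDC80 complex the level of ndc80 was 30.6 to 35.5% of the sum of the 4 genes in SP_H and 32.8 to 36.4% in SP_L. The proportion of spc25 was 24.7 to 27.7% in SP_H and 24 to 26.9% in SP_L. These ranges overlapped, as did those of nuf2 and spc24, with SP_L replicate 3 low in spc24 (16.8%, the other 5 libraries between 22.5 and 24.8%). Among the condensin genes measured, ncapg made up 12.4 to 12.9% in SP_H and 9.79 to 12.3% in SP_L, ranges that did not overlap, while those of smc4, ncapd2 and ncaph did. Among cdk1 and the 4 cyclin genes, ccnb1 made up 47.0 to 48.6% in SP_H and 49.2 to 51.7% in SP_L, and ccnb2 4.30 to 5.72% in SP_H and 5.77 to 8.16% in SP_L. These 2 proportions were higher in every SP_L library, by a small margin, and that of cdk1 overlapped (19.0 to 25.6% in SP_H, 15 to 22.0% in SP_L). Those of ccnb3 and ccna2 overlapped too, as did all proportions in the passenger complex and in centralspindlin (kif23 and racgap1). Among all tested genes, 9.46% lay lower and 9.64% higher in SP_L without overlap in CPM. The few proportions without overlap are therefore not read as a result. Proportions within an assembly depend on each other. With 3 libraries a side the smallest exact permutation p is 0.1, so these proportions were not tested.

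**Figure D3:**
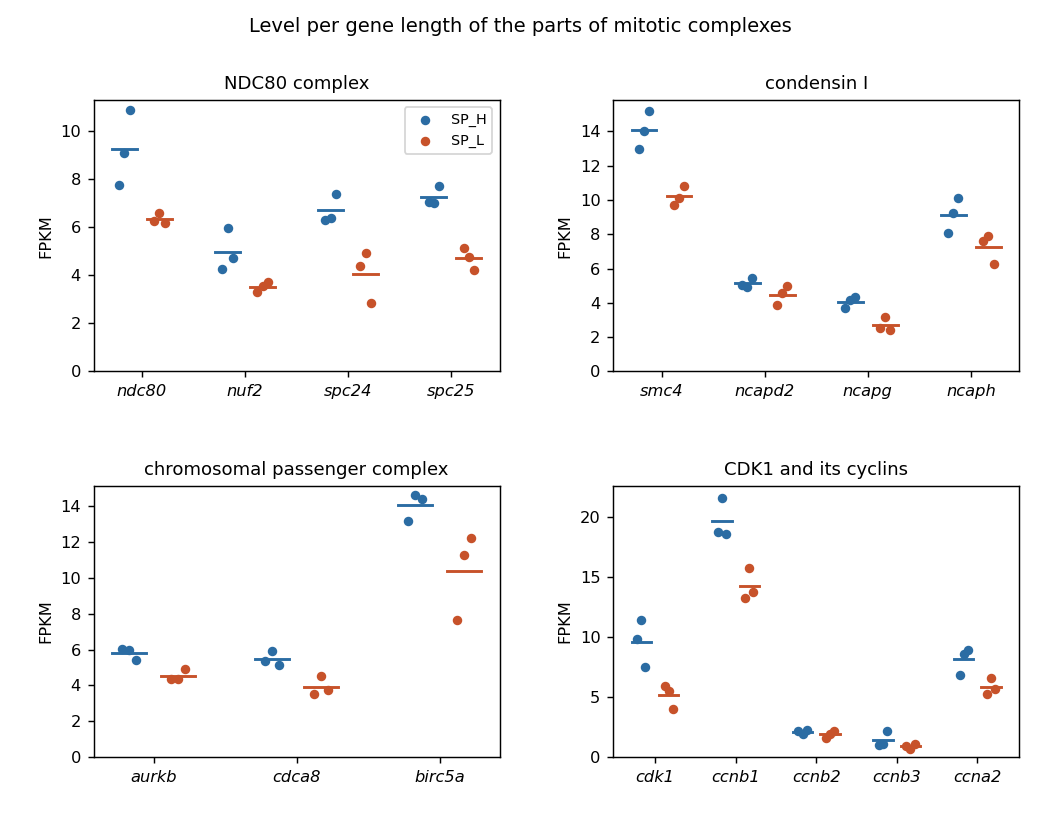
Deposited FPKM of the genes of 4 mitotic assemblies, 1 point per library with the group mean as a line, SP_H in blue and SP_L in orange. In the NDC80 panel all 4 genes are lower in SP_L, with ndc80 at 9.25 ± 1.58 FPKM (SD, n = 3) in SP_H and 6.34 ± 0.225 FPKM (n = 3) in SP_L. The groups of ncapd2, ccnb2 and ccnb3 overlap.

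Genes of mitosis outside these 53 were examined from a list of 103 symbols, of which 76 were in the table and 73 were tested. Of these, 60 had negative values, the median was -0.24, and edgeR called 0 in either direction, as did DESeq2. Over all genes edgeR called 0.0679% and DESeq2 2.22%. The lowest p-values belonged to kpna2 (-0.41 ± 0.08, edgeR adjusted p = 0.0984), which encodes a nuclear import receptor, cdca3 (-0.45 ± 0.11, edgeR adjusted p = 0.133), the minus-end kinesin gene kifc1 (-0.43 ± 0.13), arhgap11a (-0.81 ± 0.28) and the shugoshin gene sgo1, whose product protects cohesion at centromeres (-0.56 ± 0.19). In 22 of the 73 genes (30.1%) all SP_L libraries lay below all SP_H libraries, against 9.46% of all tested genes. The gene arhgap11a had 40.2 CPM in SP_H replicate 1 against 13.0 to 22.3 CPM in the other 5 libraries.

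Some of these 73 genes were sorted by complex, a division made after the values were seen and given without a test. The rest, among them kpna2, cdca3, kifc1 and arhgap11a, were placed in no group. The medians are descriptions, and some groups held only 2 to 7 genes. The 10 subunit genes of the anaphase-promoting complex had 4 negative and 6 positive values with a median of 0.02. The most abundant of the 73 genes per length, cdc27, is one of these subunits, with 53.3, 58.8 and 69.8 CPM in SP_H and 59.4, 62.9 and 62.9 CPM in SP_L (0.03 ± 0.11). The 5 genes of cohesin, the ring that joins sister chromatids, had a median of -0.06, and the 7 genes of augmin, which branches spindle microtubules, one of -0.12. The other 15 centromere and kinetochore genes had 13 negative values and a median of -0.38, and the 2 subunit genes of condensin II had -0.59 ± 0.27 (ncapd3) and -0.48 ± 0.19 (ncapg2). No test compared these complexes with the 53 genes.

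**Figure D4:**
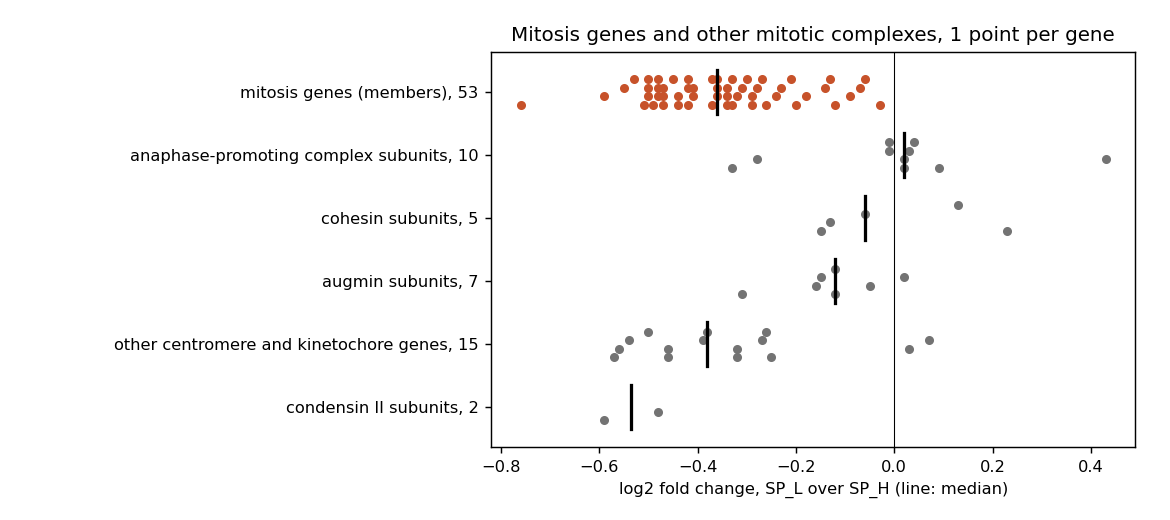
Log2 fold change, SP_L over SP_H, of the 53 mitosis genes (orange) and of genes of 5 other mitotic complexes or groups (grey), 1 point per gene, with the median as a line; points are staggered vertically only to separate them. The anaphase-promoting complex genes centre on 0.02 and the other centromere and kinetochore genes on -0.38, beside -0.36 for the 53 mitosis genes.

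DNA replication genes act in an earlier phase of the same cell cycle. Of 55 listed, 49 were tested, 45 had negative values, the median was -0.23 and edgeR and DESeq2 called 0. In either direction, these tests called 0.0679% and 2.22% of all genes. DESeq2 gave no adjusted p for 1 of the 49. The thymidine kinase gene tk1 had the lowest p-value, at 18.2, 22.1 and 22.7 CPM in SP_H and 13.5, 14.1 and 15.6 CPM in SP_L (log2 fold change -0.54 ± 0.12, edgeR adjusted p = 0.125). Next came the maintenance DNA methyltransferase gene dnmt1 (-0.30 ± 0.10), the helicase genes gins2 (-0.72 ± 0.26) and mcm5 (-0.43 ± 0.18) and the primase gene prim2 (-0.30 ± 0.12). The most abundant per length, rpa3, whose product binds single-stranded DNA, had -0.21 ± 0.10. All 3 SP_L libraries lay below all 3 SP_H libraries in 12 of the 49 genes (24.5%), against 9.46% of all tested genes. The library medians of the replication list, unlike those of the mitosis genes, overlapped: SP_L replicate 1 (0.02) lay above SP_H replicate 1 (-0.01). Whether the fold changes of the 2 sets differ was not tested.

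**Figure D5:**
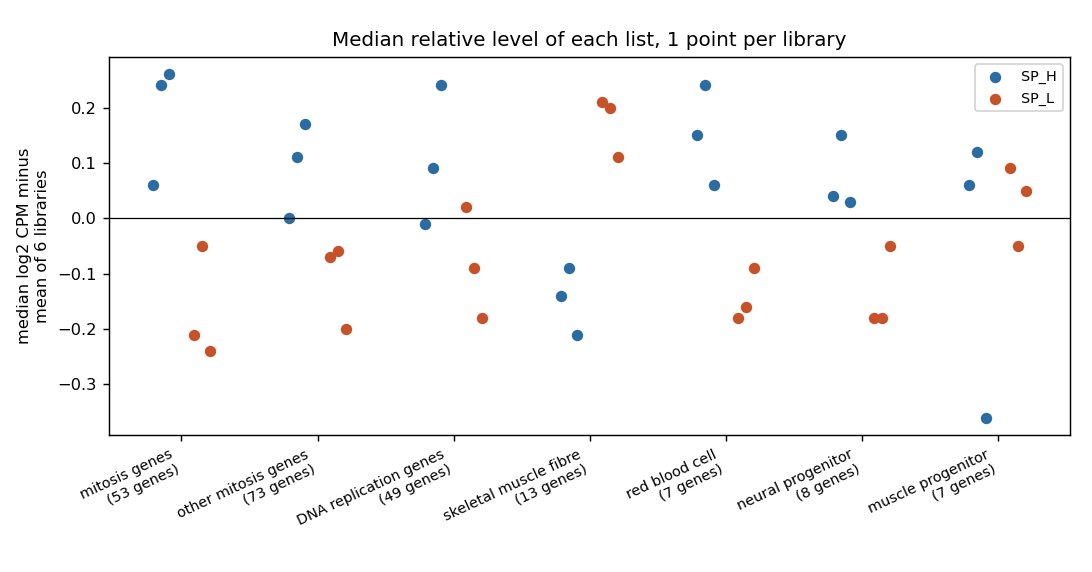
Median level of each gene list in each library, as log2 CPM minus the mean of the 6 libraries, 1 point per library, SP_H in blue and SP_L in orange. The mitosis genes lie between 0.06 and 0.26 in SP_H and between -0.24 and -0.05 in SP_L, and the skeletal muscle fibre markers have the opposite order.

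Markers of some tissues also differed between the groups, in both directions, and their part in the result was not tested. Of all tested genes, 49.5% had negative values. The 13 tested markers of skeletal muscle fibres, cells that no longer divide, all had positive values with a median of 0.34. EdgeR called 1 of them higher and DESeq2 called 6, against 0.0679% and 2.22% of all genes called in either direction. They took 7.40 to 8.19% of all counts in SP_H and 8.46 to 9.39% in SP_L. The most abundant, pvalb3, had a log2 fold change of 0.34 ± 0.10. Of 7 red blood cell markers, 6 had negative values, among them the haemoglobin gene hbae5 (-0.75 ± 0.12, edgeR adjusted p = 0.076, DESeq2 adjusted p = 1.78e-06), and the 7 took 0.458 to 0.534% of counts in SP_H and 0.249 to 0.332% in SP_L. Most of that share was hbae5, which held 3790 to 4630 of the summed 4320 to 5200 CPM in SP_H. In SP_L it held 2120 to 2810 of 2650 to 3360 CPM, and the sum without hbae5 was not compared. EdgeR called 0 of these 7, and DESeq2 called 2 lower and 1 higher. Among progenitor markers, the 8 neural ones summed to 147 to 175 CPM in SP_H and 137 to 155 CPM in SP_L with 6 negative values. Of these 8, 3 (37.5%) lay lower in SP_L without overlap and 0 higher, against 9.46% and 9.64% of all tested genes. The 7 muscle progenitor markers summed to 153 to 206 CPM in SP_H and 190 to 200 CPM in SP_L, with 4 negative values. The 4 enterocyte markers (1 negative) summed to 30.0 to 47.8 CPM in SP_H and 44.8 to 53.3 CPM in SP_L, and the 4 thymocyte markers (2 negative) to 9.82 to 14.1 CPM in SP_H and 9.05 to 17.5 CPM in SP_L. Germ cell markers were nearly absent: 8 of 10 had too few counts to be tested, with at most 12 in a library. No marker found in the table was at 0 in every library. The table held 13 of 23 listed skeletal muscle fibre markers, 7 of 9 red blood cell and 7 of 8 muscle progenitor ones. It held 8 of 13 listed neural progenitor, 4 of 10 listed enterocyte and 4 of 7 listed thymocyte markers. When the 20 most abundant genes were left out, the mitosis genes had the same median of -0.36 and 53 negative values. That fit checks scaling alone, and the part of tissue shares in the RNA was not tested.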

How the data were processed

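The deposited counts are whole-number read counts per gene, not normalized, in 1 column per library. The deposited FPKM values are the authors' scaling of these counts: in each of 17907 genes with 20 or more counts in every library, the gene length implied by count and FPKM was equal in all 6 libraries within 0.1%. The submitters' processing notes list HISAT2, Bowtie2, StringTie, Cufflinks, HTSeq, DESeq, SAMtools and Trimmomatic; which tool did what is not given in the sources used here. They name a mouse build although the gene symbols are those of the bass, so no position is given, and sequences were not used here. Per the labels, the kit made stranded mRNA libraries, and the sequencer of each library is not stated; whether counting used strand is not given in the sources used here. All 53 genes had a symbol in the RefSeq table (ASM1485139v1).

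Libraries held 14958887 to 16922264 counts. Genes passed filterByExpr (count of 10, total of 15) and were compared in R 4.3.3 with edgeR 4.0.16: TMM scaling, quasi-likelihood F test, Benjamini-Hochberg adjustment over all 20627 tested genes, threshold 0.05. Standard errors are the log2 fold change over the root of F. Library profiles use log2 CPM with a prior count of 2. Between replicates of a group, squared differences in counts were on average 12 to 16.1 times what sampling gives, so none is another library sequenced again. These values cannot show whether replicates shared RNA or a tank. Alternatives used DESeq2 1.42.0, limma 3.58.1 (voom, or log2 FPKM plus 1 or 0.1), other scalings and filters, the replicate number as a block, robust variances, and leaving out genes or libraries. The steps were also run on simulated data, with each gene drawn independently. That run does not cover genes that vary together. The genes, lists and tests were chosen with earlier results of these data known. Values per library are given for mki67, top2a, cdk1, ccnb1, the 8 genes with the lowest p, and in each role the gene with the lowest p and the one with the highest FPKM; in other lists the 5 lowest p and the highest FPKM are named. Genes outside this rule (including aurka, ccna2, ccnb3, ect2, spc24, mad2l1, prc1b, cks1b and the other complexes) were singled out after their values were seen.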

Additional observations from a re-analysis of the deposited data

How the results depend on the processing

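In the 12 alternatives that kept all libraries all 53 genes had negative values. Without 1 library in turn, between 49 and 53 did, the median was between -0.44 and -0.31, the genes without overlap numbered 33 to 42 (13.3 to 15.7% of all genes in the same fits) and those at an unadjusted p under 0.05 numbered 15 to 29. The exceptions in direction were ect2 (-0.98 to 0.27), bub3 (-0.22 to 0.06), kif14 (-0.42 to 0.03), ccnb2 (-0.12 to 0.08) and ncapd2 (-0.13 to 0.01), ranges over the fits without 1 library. Leaving out 1 library moved the log2 fold change by over 1.5 times in 22 of the 53 genes, among them, without SP_H replicate 3, ccnb3 (-0.06), mad2l1 (-0.07), prc1b (-0.12) and cks1b (-0.03), and birc5a (-0.14 without SP_L replicate 1). With library size alone the median was -0.49, and on log2(FPKM + 0.1) it was -0.47, where the medians of all genes were -0.13 and -0.12. On log2(FPKM + 1) the median of all genes was -0.09, and -0.07 without the filter. Of the mitosis genes, 42 had an unadjusted p under 0.05 with library size alone and in each of the 3 limma fits of FPKM. The share of all genes at that p is not given here for these fits or for those without 1 library. The count of 42 is therefore not read as a stronger result. With library size alone 42 did not overlap, against 21.4% of all genes. DESeq2 called 2 mitosis genes, mki67 and top2a, and no other alternative called any. Over all genes, against 14 called and 2 of them lower, library size alone called 5, DESeq2 449 and 123, no filter on low counts 57 and 9, robust variance estimation 78 and 16, limma on FPKM 0 and 0 in all 3 fits, and leaving out the 20 most abundant genes 12 and 1. Leaving out 1 library gave 0 to 22 and 0 to 5. The cause of these shifts was not tested. With the replicate number as a block, 2 genes were called and 0 of them lower, no mitosis gene was called, and the median of the 53 genes was -0.35. Correlations of the deviations of equal numbers were -0.0675, -0.0889 and -0.1, and those of unequal numbers ran from 0.0161 to 0.0704. Nothing in the labels ties equal numbers, and these correlations alone cannot exclude a shared tank or batch.

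Standard errors were widest for genes of low CPM, with 0.60 for ect2, which had 7 to 30 counts a library; the cause of that spread was not tested.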
